A study of Mus musculus with 26 samples.

Results

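Interferon-stimulated genes were followed as a set of 34 members in RNA-seq libraries of leukaemic mouse LSK cells. The members were taken by symbol from a fixed list. All 34 were in the table of 24091 genes, and all 34 were among the 13379 genes that passed a filter on low counts. By role they were 4 nucleic acid sensors, 3 transcription factors, 13 antiviral effectors, 2 genes of the ISG15 system, 3 guanylate-binding proteins and 9 others.

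Type I interferons bind a receptor that activates the kinases JAK1 and TYK2, which phosphorylate STAT proteins, among them STAT2. With IRF9, STAT2 is part of a complex that binds the interferon-stimulated response element, a short DNA motif, and turns on antiviral genes. Poly(I:C) is a synthetic double-stranded RNA that mimics viral RNA and induces interferon. In blood-forming stem cells interferon raises Sca-1, the protein of Ly6a, and brings resting cells into cycle. Mx1-cre places the recombinase under an interferon-inducible promoter, so in mice that carry it the tool for deletion works through the same pathway as the genes measured here.

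RNA came from bone marrow cells that are positive for Sca-1 and c-Kit and negative for lineage markers (LSK), a fraction that holds stem and multipotent progenitor cells. Every mouse was on the C57BL/6 background and carried SCLtTA/BCR-ABL, a transgenic model of chronic myeloid leukaemia in which BCR-ABL is switched on by a tetracycline-dependent activator under an Scl promoter element. The study compared leukaemic mice with and without Spred1, which codes for an inhibitor of RAS-ERK signalling. There were 26 libraries in 5 groups.

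HSC KO (5 libraries, Spred1 deleted by Mx1-cre) and HSC wt (5 libraries, Spred1 intact) both received 7 intraperitoneal doses of 250 µg poly(I:C), 1 every 2 days. Global KO (6 libraries) lacked Spred1 in all tissues, and Spred1 wt (5 libraries) was its control. EC KO (5 libraries) had the endothelial knockout, by a Cre line that the labels do not name. Its own control, EC wt, was not analysed here, and Spred1 wt stood in for it. The labels give no poly(I:C) for global KO, Spred1 wt and EC KO, no ages, and no time between the last dose and the sort. Deletion by Mx1-cre is not limited to stem cells. Where the labels do not tie a library to a separate mouse, p-values measure only the spread between libraries.

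Total counts were 14816100 to 26714300 per library, and no columns were identical. Levels are CPM, the share of counts scaled to a common library size, and log2 CPM has a prior count of 2. Spred1 checked the labels: its range was 28.8 to 47.4 CPM in HSC KO and 22.4 to 44.5 CPM in global KO. In the intact groups it was 96.8 to 109 CPM (HSC wt) and 92.4 to 148 CPM (Spred1 wt). In EC KO it lay at 58 to 83.9 CPM, below every Spred1 wt library. The gate genes were present in every library, Kit at 344 to 1250 CPM and Ly6a at 41 to 83.6 CPM. By Xist, female libraries numbered 3 in HSC KO, 2 in HSC wt and 2 in EC KO, and all global KO and Spred1 wt libraries were male. In bulk samples fewer cells of a type and less RNA per cell cannot be told apart. The library HSC KO 1 stood far from the others in most members, so results that rest on it are given with and without it.

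Promoter sequences show what the members share at the DNA level, independently of the counts. RefSeq promoter windows (build GRCm38.p6, 250 bases before to 50 after the start) were found for 23 of the 34 members, and not for Oas2, Mx1, Mx2, Usp18, Ifi27l2a, Rtp4, Zbp1, Dhx58, Ly6e, Parp9 and Parp14. Each window was searched for GAAANNGAAA and for its reverse complement TTTCNNTTTC, the core of the interferon-stimulated response element. The motif was in 14 of 23 members (60.9%) and in 1079 of 27025 genes with a window (3.99%). A match is a description of the letters, not evidence of binding. Of the members with a match before the start, the 8 whose level followed the rest of the set most closely are shown. They are printed on the gene's strand with the motif in capitals.
Oas3, chr5:120777710-120777749, minus strand: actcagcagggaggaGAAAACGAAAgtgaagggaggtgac
Trim30a, chr7:104465205-104465244, minus strand: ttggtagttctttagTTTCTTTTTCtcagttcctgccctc
Rsad2, chr12:26456548-26456587, minus strand: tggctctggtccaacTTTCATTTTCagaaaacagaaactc
Ifit1, chr19:34640770-34640809, plus strand: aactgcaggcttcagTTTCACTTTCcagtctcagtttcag
Ifit1, chr19:34640789-34640828, plus strand: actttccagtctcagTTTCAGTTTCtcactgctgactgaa
Ifit3, chr19:34583358-34583397, plus strand: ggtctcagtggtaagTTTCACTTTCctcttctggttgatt
Ifit3, chr19:34583392-34583431, plus strand: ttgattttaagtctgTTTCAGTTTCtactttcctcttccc
Gbp2, chr3:142620589-142620628, plus strand: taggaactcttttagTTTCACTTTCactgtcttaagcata
Gbp7, chr3:142530268-142530307, plus strand: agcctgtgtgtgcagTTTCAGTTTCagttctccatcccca
Oas1a, chr5:120907526-120907560, minus strand: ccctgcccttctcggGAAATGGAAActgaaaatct
Oas1a, chr5:120907526-120907554, minus strand: ccttctcgggaaatgGAAACTGAAAatct

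Ifit1, which codes for a protein that binds foreign RNA ends, and Ifit3 each hold a pair of motifs, TTTCACTTTC followed by TTTCAGTTTC. In Ifit1 these begin 104 and 85 bases before the start, and in Ifit3 156 and 122 bases before it. The 2 motifs of Oas1a overlap each other, beginning 20 and 14 bases before the start. Among members with a window, 9 held no match in it: Cmpk2, Ifi35, Ifi44, Ifit2, Irf7, Irf9, Oasl1, Oasl2 and Xaf1. Bst2, whose level hardly followed the set, did hold it, and Irf7 and Irf9, which followed the set closely, did not, so the match did not sort the members by behaviour.

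The members spanned a wide range of levels. Per kilobase of gene model, Ly6e, a surface protein of the same family as Sca-1, was the highest at 343 CPM per kb. Bst2, the tetherin that holds budding virus at the membrane, came next at 41.2 CPM per kb. The lowest were Ifit3 at 0.466 CPM per kb and Mx2, a dynamin-like GTPase, at 0.924 CPM per kb. Sensors were expressed throughout: Ddx58, which codes for the RNA sensor RIG-I, lay at 38 to 86.8 CPM over the 26 libraries. Ifih1, which codes for MDA5, the sensor of long double-stranded RNA such as poly(I:C), lay at 24.2 to 56.9 CPM.

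The interferons themselves were almost unread. Of 21 interferon genes, 14 had no count in any library and none passed the filter. The highest count in a library was 14, for Ifng. Ifnb1, the gene of interferon beta, had 1 count over all 26 libraries. At this depth interferon transcripts were at or near the counting limit in the sorted cells. The receptor gene Ifnar1 was read at 86.4 to 132 CPM in every library.

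The mean log2 CPM of the 34 members set the libraries in order. HSC KO 1 was the highest of 26 at 5.12. The other 4 HSC KO libraries lay at 3.57, 3.58, 3.47 and 3.48 (libraries 2 to 5), and only EC KO 1 was lower than all of them. The gap from HSC KO 1 to the next HSC KO library was 1.54 on the log2 scale, and that to the next of all libraries was 0.52. The group thus held the highest library of the series and 4 of the 6 lowest. HSC KO 1 was female, as were HSC KO 4 and 5 at the low end of the group.

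The other groups differed in how tight they were. HSC wt lay at 3.95, 3.97, 3.60, 3.81 and 3.83 (libraries 1 to 5), the narrowest of the groups. Spred1 wt lay at 4.6, 4.41, 3.99, 4.31 and 4.22. All 5 Spred1 wt libraries were above all 5 HSC wt libraries, though Spred1 wt 3 by only a small margin.

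Global KO lay at 4.52, 3.83, 4.45, 3.60, 3.88 and 4.51 (libraries 1 to 6). Libraries 1, 3 and 6 were within the range of Spred1 wt, and libraries 2, 4 and 5 were below it. EC KO lay at 3.33, 3.47, 4.14, 4.32 and 4.49. Its female libraries, 1 and 2, were below all Spred1 wt libraries, and its male libraries, 3 to 5, overlapped them.

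As group means these levels were 3.84 ± 0.72 in HSC KO (SD, n = 5), 3.83 ± 0.15 in HSC wt (n = 5), 4.13 ± 0.41 in global KO (n = 6), 4.31 ± 0.23 in Spred1 wt (n = 5) and 3.95 ± 0.52 in EC KO (n = 5). Without HSC KO 1, the HSC KO mean was 3.52 ± 0.06 (SD, n = 4). The HSC KO mean was therefore level with HSC wt when HSC KO 1 was counted, and below every HSC wt library when it was not. These means are descriptions over a chosen set and carry no test.

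**Figure D1:**
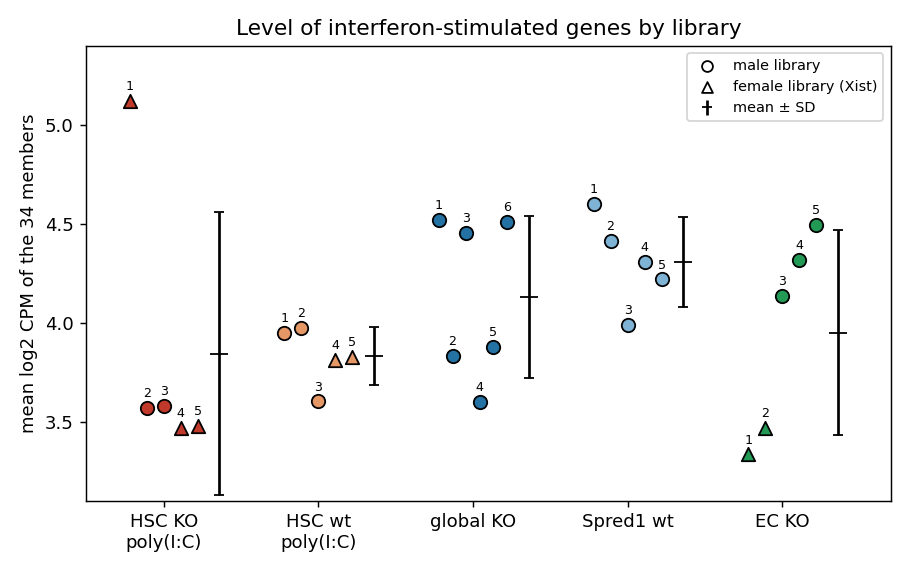
Mean log2 CPM of the 34 members in each of the 26 libraries by group, with the group mean and SD; triangles are female and circles male libraries (by Xist), and numbers name libraries. HSC KO 1 lies at 5.12, above all others, while the other 4 HSC KO libraries lie between 3.47 and 3.58.

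HSC KO 1 had the highest value of all 26 libraries in 28 of the 34 members (82.4%), against 7.20% of all genes tested. The ratio of HSC KO 1 to the mean of the other 4 HSC KO libraries had a median of 2.94 over the members and 0.985 over all genes with a ratio. It was at least 2 in 22 members (64.7%) and in 5.32% of all genes. Scaling to a common library size holds the typical gene near a ratio of 1. The ratios therefore compare the members with other genes and cannot show a shift of the whole library.

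Among the antiviral effectors the ratios ran from 11.6 in Mx1 to 1.20 in Bst2. Mx1, the GTPase whose promoter drives the Cre, was at 14.5 CPM in HSC KO 1 and at 2.43, 0.639, 0.77 and 1.17 CPM in HSC KO 2 to 5, a ratio of 11.6. C57BL/6 mice carry a defective Mx1 allele, so that only the RNA is of interest here. Mx2 was at 7.40 CPM in HSC KO 1 and at 0.724, 0.905, 0.77 and 1.06 CPM in the others, a ratio of 8.56. Ifit3 was at 2.10 CPM in HSC KO 1 and at 0.395, 0.32, 0.257 and 0.167 CPM in the others, a ratio of 7.38. In each of these 3 genes HSC KO 1 stood clear of a low and narrow group, although Mx1 still varied among the other 4.

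The oligoadenylate synthetases, which make the activator of RNase L, moved with them. Oas2 was at 44.9 CPM in HSC KO 1 and at 6.58, 9.37, 5.84 and 7.69 CPM in the others. Oas3 was at 49.2 CPM against 10.2, 10.6, 9.56 and 9.36 CPM. Oas1a, at 33.3 CPM against 14.7, 12.4, 15.3 and 15.3 CPM, had a smaller ratio of 2.31. These genes neighbour each other on chromosome 5 and belong to a family of close copies, and how reads shared between copies were counted is not given in the sources used here.

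Among genes with other roles, Ifi44 was at 34.1 CPM in HSC KO 1 and at 1.45, 4.05, 3.34 and 4.23 CPM in the other HSC KO libraries, a ratio of 10.4. Ifi27l2a was at 5.13 CPM against 0.658, 1.22, 0.577 and 0.446 CPM. Irf7, the transcription factor that amplifies interferon production, was at 27.2 CPM against 6.05, 6.66, 5.90 and 5.96 CPM. Here too the other 4 libraries agreed closely, with an SD of 0.348 CPM.

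Ly6e and Bst2 moved least, but a high level did not by itself mark such members. Gbp7, at a mean of 105.7 CPM over all libraries, had a ratio of 1.61, and Ifi35, at 25.55 CPM, had 1.3. Ly6e was at 885 CPM in HSC KO 1 and at 810, 768, 848 and 841 CPM in the others, a ratio of 1.08. Bst2 was at 35.2 CPM against 27.6, 30.8, 29.1 and 30.1 CPM, a ratio of 1.20. Stat2, a partner of IRF9 in the signalling complex, had a ratio of 1.41. Irf9 itself had a ratio of 2.22, so these members of the complex were not raised alike.

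**Figure D2:**
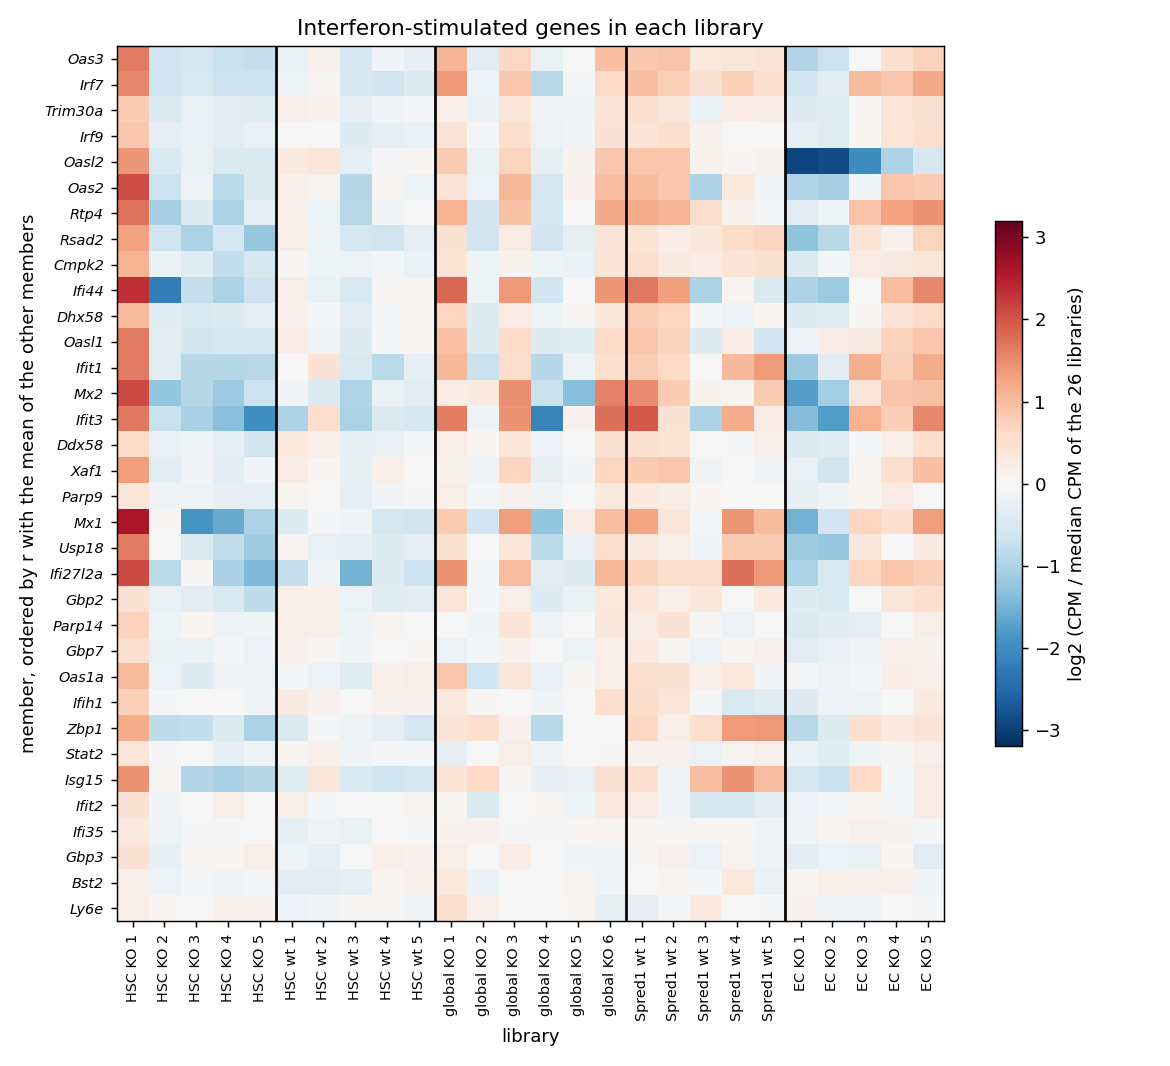
Log2 CPM of each of the 34 members (rows) in each of the 26 libraries (columns, by group), relative to the member's median over all libraries, as a colour scale, with rows ordered by r with the mean of the other members. HSC KO 1 is the highest library in 28 of the 34 rows, and the Oasl2 row is low in all 5 EC KO libraries.

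Genes outside the set were also high in HSC KO 1. Of 55 other interferon-stimulated genes tested, 33 (60%) had their highest value in that library, and their median ratio to the other 4 HSC KO libraries was 1.85. Among 16 genes of the sensing pathway 2 were highest there. None of the interferon receptor genes tested (Ifnar1, Ifnar2, Ifngr1, Ifngr2, Ifnlr1 and Il10rb) and none of the kinase genes Jak1, Jak2 and Tyk2 had its highest value in that library. Ly6a, the interferon-inducible gate gene, was at 43.5 CPM in HSC KO 1, the lowest of its group, whose highest was 82.3 CPM.

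Summed markers of some other cell types also stood high or low in the same library. The summed level of 8 plasmacytoid dendritic cell markers, a cell type known for making interferon, was 466 CPM in HSC KO 1 and 191 to 445 CPM in the other 25 libraries. Only 1 of the 8 had its highest value in HSC KO 1: Irf8, which is also counted among the sensing genes. Siglech was at 2.86 CPM and Klk1 was at 0 there. The sum of 8 B and plasma cell markers was 1040 CPM against 191 to 673 CPM, of which Jchain alone made up 824 CPM. The sum of the 8 erythroid markers in the table was 353 CPM against 9.59 to 114 CPM. The mast cell and basophil sum was low, 1560 CPM against 1460 to 15600 CPM. The part of these cells in the member levels was not tested.

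Spread between libraries was larger in the members than in other genes in each of the 5 groups. The within-group SD of log2 CPM had a median of 0.48 over the members and 0.19 over all genes tested. In HSC KO the medians were 0.72 and 0.16, and without HSC KO 1 they were 0.15 and 0.12. In HSC wt they were 0.23 and 0.16. With all libraries counted, HSC wt thus had the smallest member SD and HSC KO the largest. HSC KO became the most even group only once HSC KO 1, singled out by its member values, was left out. No library was left out of the other groups. The median SD of all genes was also smaller in HSC KO and HSC wt than in the other groups.

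In the groups without stated poly(I:C) the members varied more than in HSC wt, and less than in HSC KO with HSC KO 1 counted. The median SD was 0.41 in global KO, 0.31 in Spred1 wt and 0.46 in EC KO, against 0.20 for all genes in each of the 3. Pooled over all 5 groups, Ifi44 had the largest SD at 1.13, and in HSC KO alone, with HSC KO 1 counted, its SD was 1.65. It was followed by Ifit3 at 1.08, Mx1 at 1.05 and Mx2 at 0.98. Ifit3, Mx1 and Mx2 were also low, at means of 0.931, 3.35 and 2.23 CPM, whereas Ifi44 averaged 9.82 CPM. In global KO and EC KO Ifit3 varied more than Ifi44, with SDs in EC KO of 1.27 and 1.17.

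Most members rose and fell together from library to library. With group means removed, the Pearson r of a member with the mean of the other 33 had a median of 0.888 over the 26 libraries, and it was at least 0.8 in 24 members (18 without HSC KO 1). Oas3 followed the others most closely, with r = 0.974 (Spearman rho 0.952). Irf7 and Trim30a, which codes for a regulator of Toll-like receptor signalling, each had r = 0.953. These values describe libraries that share depth and normalization and are not tests.

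A few members did not follow. Ly6e had r = -0.094 (rho -0.187) and Bst2 had r = 0.213 (rho 0.143). Gbp3, a guanylate-binding protein, had r = 0.447, Ifi35 0.538, Ifit2 0.613 and Isg15, the ubiquitin-like modifier, 0.638. Several values depended on HSC KO 1: without that library r was 0.339 in Isg15, 0.205 in Ifi35 and 0.198 in Gbp3. In Zbp1 it went from 0.718 to 0.492.

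The genes outside the set that followed it best were chosen by the same measure, with a mean of at least 1 CPM. Among them were Tgtp2 (r = 0.943), Iigp1 (0.941), Gm4951 (0.937), Slfn5 (0.937), Irgm1 (0.934), Igtp (0.925), Trim12c (0.922), Irgm2 (0.917), Gbp5 (0.915), Gm12185 (0.914), Cnn3 (0.911), Gbp9 (0.906), Arl5c (0.898) and Tgtp1 (0.897). Tgtp2, Iigp1, Irgm1, Igtp, Irgm2 and Tgtp1 code for immunity-related GTPases, and Gbp5 and Gbp9 for guanylate-binding proteins. Without HSC KO 1 the r of the genes named was between 0.824 and 0.912. B4galnt4 moved most strongly the other way, with r = -0.929.

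The plasmacytoid dendritic cell sum, which includes Irf8 of the sensing genes, followed the members as well. Its r was 0.868 over the 26 libraries and 0.824 without HSC KO 1. The B and plasma cell sum had r = 0.753, which was 0.499 without HSC KO 1. The erythroid sum had r = 0.750, which was 0.433 without it. The mast cell and basophil sum ran the other way, with r = -0.608, which was -0.533 without HSC KO 1. For the LSK and stem cell sum r was 0.301, which was 0.436 without it. The endothelial sum had r = 0.488 (0.405 without HSC KO 1) and the mature neutrophil sum 0.362 (0.428 without it). The macrophage and monocyte sum had r = 0.29 (0.338 without it) and the T and NK cell sum -0.003 (-0.09 without it). Whether these other cells contributed to the member levels was not tested.

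**Figure D3:**
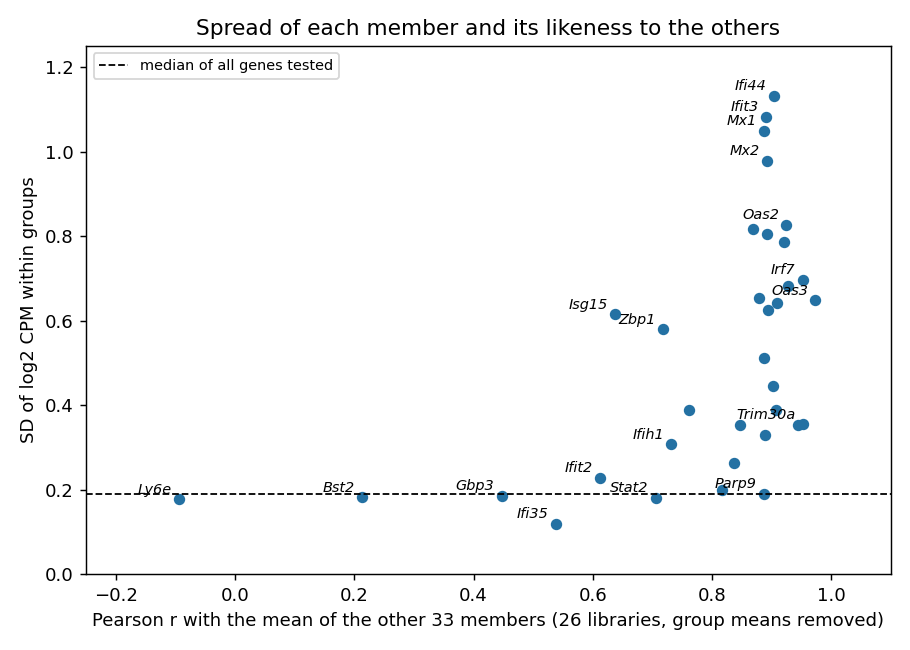
For each of the 34 members, the within-group SD of log2 CPM and the Pearson r with the mean of the other 33 members over the 26 libraries. Ifi44 has the largest SD at 1.13, and Ly6e and Bst2 lie apart at r of -0.094 and 0.213.

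Loss of Spred1 under Mx1-cre was the first comparison, HSC KO against HSC wt. The members had a median log2 difference of 0.16, against 0.02 for all genes, with 29 members higher (56.9% of all genes were) and 5 lower in HSC KO. No member passed the edgeR quasi-likelihood test with Benjamini-Hochberg adjustment over all genes at 0.05, nor had any an unadjusted p under 0.05 (2.16% of all genes did), and DESeq2 and limma voom also called 0. Of all genes 0.0224% passed. The smallest adjusted p of a member was 0.999.

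Ifi27l2a had the largest difference, a log2 value of 1.07 with a standard error (SE) of 0.56 (1.61 ± 1.99 CPM against 0.771 ± 0.245, n = 5 each). Mx1 had a log2 difference of 1.05 (SE 0.68), at 3.91 ± 5.97 CPM against 1.88 ± 0.322. In both genes the SD in HSC KO was larger than the mean. The groups overlapped in every member, whereas 0.441% of all genes had all HSC KO libraries above and 0.209% all below HSC wt.

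HSC KO 1 set the direction of this comparison. Without it the median was -0.34, and 4 members were higher and 30 lower in HSC KO. Again 0 members passed (0.0223% of all genes did), and 1 had an unadjusted p under 0.05 (4.28% of all genes did): Cmpk2, a mitochondrial nucleotide kinase, with a log2 difference of -0.36 (SE 0.16, adjusted p = 0.877 by edgeR). In 3 members, Oas3, Ifi44 and Cmpk2, the remaining 4 HSC KO libraries lay below all 5 HSC wt libraries, as 1.71% of all genes did. Male libraries alone, only 2 HSC KO against 3 HSC wt and again without HSC KO 1, gave a median of -0.28. Limma voom with quality weights on all libraries gave -0.18.

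Poly(I:C) and intact Spred1 met in the second comparison, HSC wt against Spred1 wt. These groups differ in poly(I:C) as labelled and in the set of mice, and the 2 cannot be told apart. HSC wt also holds 2 female libraries, and Spred1 wt none. The members were lower in HSC wt, with a median log2 difference of -0.37 against -0.01 for all genes, and 32 of 34 pointed down (52.1% of all genes did). None passed the edgeR test (0.0299% of all genes did). An unadjusted p under 0.05 was found in 4 members, all lower, while 6.35% of all genes had one. DESeq2 and limma voom called 0 members.

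Zbp1, a sensor of Z-form nucleic acid that can trigger cell death, had the smallest p of the members. It was at 4.96, 6.53, 6.08, 5.55 and 4.74 CPM in the HSC wt libraries, and at 10.8, 7.88, 10, 17.6 and 17.9 CPM in Spred1 wt. The groups did not overlap, and the log2 difference was -1.20 (SE 0.36, adjusted p = 0.453 by edgeR). Ifi27l2a had a log2 difference of -1.71 (SE 0.56, adjusted p = 0.529), at 0.771 ± 0.245 CPM in HSC wt against 2.53 ± 1.01 (SD, n = 5 each).

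Isg15 and Irf7 also had an unadjusted p under 0.05. Isg15 had a log2 difference of -1.14 (SE 0.40, adjusted p = 0.578 by edgeR). It was at 2.41, 4.08, 2.23, 2.01 and 2.15 CPM in the HSC wt libraries, and at 4.55, 2.89, 6.12, 8.57 and 6.18 CPM in Spred1 wt, and the groups overlapped through HSC wt 2. Irf7 had a log2 difference of -1.03 (SE 0.44, adjusted p = 0.707), at 7.56 ± 1.48 CPM against 15.4 ± 2.13 (SD, n = 5 each). Irf7 had no overlap between the groups.

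In 8 members all HSC wt libraries lay below all Spred1 wt libraries, as 1.1% of all genes did. These were Irf7, Oas3, Mx1, Mx2, Rsad2, Ifi27l2a, Zbp1 and Cmpk2. Rsad2, the gene of viperin, was at 12.8, 9.95, 7.56, 7.08 and 8.85 CPM in the HSC wt libraries, and at 15, 13, 14.3, 16.5 and 17.7 CPM in Spred1 wt. Its highest HSC wt library was only just under its lowest Spred1 wt library. Ifit2 (log2 difference 0.26) and Ifih1 (0.07) were the 2 members with a higher value in HSC wt.

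HSC KO 1 entered this comparison only through the estimate of spread that all groups share. With it left out of the fit, 14 members had an unadjusted p under 0.05, all lower (7.1% of all genes), and 0 passed after adjustment (0.052% of all genes). The smallest adjusted p by edgeR was then 0.109. The median log2 difference of the members was -0.365 in both fits. HSC KO 1 was singled out after its member values were seen, so these p-values are not independent of that choice.

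Taking both poly(I:C) groups together against global KO and Spred1 wt put 1 knockout and 1 wild-type group on each side. The members had a median log2 difference of -0.27 against -0.0045 for all genes, with 31 of 34 lower (51.4% of all genes were). An unadjusted p under 0.05 was found in 7, all lower, while 13.4% of all genes had one. None passed by edgeR (0.441% of all genes did) or by DESeq2, and limma voom with quality weights called 5. Limma voom also called many more of all genes in this contrast than edgeR did, so the edgeR share is not its background. The members of smallest p were Zbp1 (log2 difference -0.70, adjusted p = 0.227), Ifi27l2a (-0.95, adjusted p = 0.282), Isg15 (-0.64, adjusted p = 0.316) and Irf7 (-0.69, adjusted p = 0.332).

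Without HSC KO 1 the same contrast had 33 of 34 members lower, a median of -0.50, and 25 members with an unadjusted p under 0.05, all lower (17.8% of all genes). By edgeR 6 members had an adjusted p under 0.05, all lower, where 0.928% of all genes passed and 0.587% passed as lower. The library was singled out after its member values were seen, and it was left out of the group then found lower in the same members, so these p-values are not independent of that choice. Zbp1 had a log2 difference of -1.02 (SE 0.20, adjusted p = 0.0138), Ifi27l2a of -1.52 (SE 0.31, adjusted p = 0.0193) and Cmpk2 of -0.53 (SE 0.11, adjusted p = 0.0193).

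The other 3 were Isg15, Oas3 and Irf7. Isg15 had a log2 difference of -1 (SE 0.22, adjusted p = 0.028 by edgeR), Oas3 of -0.95 (SE 0.21, adjusted p = 0.03) and Irf7 of -1.06 (SE 0.25, adjusted p = 0.0359). In none of the 34 did all 9 libraries lie below all 11, which 0.0223% of all genes did. In their mean level, global KO 2, 4 and 5 lay within the range of HSC wt or below it.

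These 6 calls were lost when sex was taken into account. Of the 9 poly(I:C) libraries 4 were female, and all 11 others were male. With HSC KO 1 left out and sex as a covariate, 0 members passed by edgeR (0.111% of all genes did), and 17 had an unadjusted p under 0.05, all lower (7.25% of all genes). The median over the members was then -0.36, with 32 of 34 lower, and Zbp1 had the smallest adjusted p, 0.2, with a log2 difference of -0.83 (SE 0.22). Male libraries alone, 5 against 11, also gave 0 members (0.051% of all genes), and 22 with an unadjusted p under 0.05, all lower (9.19% of all genes). There the median was -0.49, with 33 of 34 lower, and Zbp1 had a log2 difference of -1.01 (SE 0.22, adjusted p = 0.118).

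The leading effectors pointed the same way without passing. Mx1 had a log2 difference of -1.33 (SE 0.35, adjusted p = 0.0649), Mx2 of -1.37 (SE 0.36, adjusted p = 0.0689) and Ifit3 of -1.69 (SE 0.48, adjusted p = 0.0845), all by edgeR without HSC KO 1. With all libraries these were -0.51 (adjusted p = 0.65), -0.71 (adjusted p = 0.483) and -1.10 (adjusted p = 0.342) by edgeR. With HSC KO 1 left out and sex as a covariate, their adjusted p by edgeR was 0.595, 0.595 and 0.66. Members of steady level had smaller differences without HSC KO 1, though not all alike. Ly6e was at -0.04 (SE 0.08) and Gbp3 at -0.03 (SE 0.07). Ifi35 was at -0.133 (SE 0.05, adjusted p = 0.166 by edgeR) and Parp9 at -0.245 (SE 0.069, adjusted p = 0.0801 by edgeR). Of the 55 other interferon-stimulated genes, 43 were lower with all libraries (51.4% of all genes were) and 0 were called (0.441% of all genes were). Without HSC KO 1, in which 33 of the 55 had their highest value, 48 were lower. Igtp, an immunity-related GTPase, alone then had an adjusted p under 0.05 by edgeR (0.928% of all genes did). None of the 10 receptor and JAK-STAT genes, the 16 sensing genes or the 7 negative regulators was called in this contrast, with or without HSC KO 1. With all libraries, Spred1 wt had the highest group mean in 22 members and the highest median in 17. HSC wt had the lowest mean in 23 members but the lowest median in 3, and HSC KO had the lowest mean in 4 and the lowest median in 25.

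**Figure D4:**
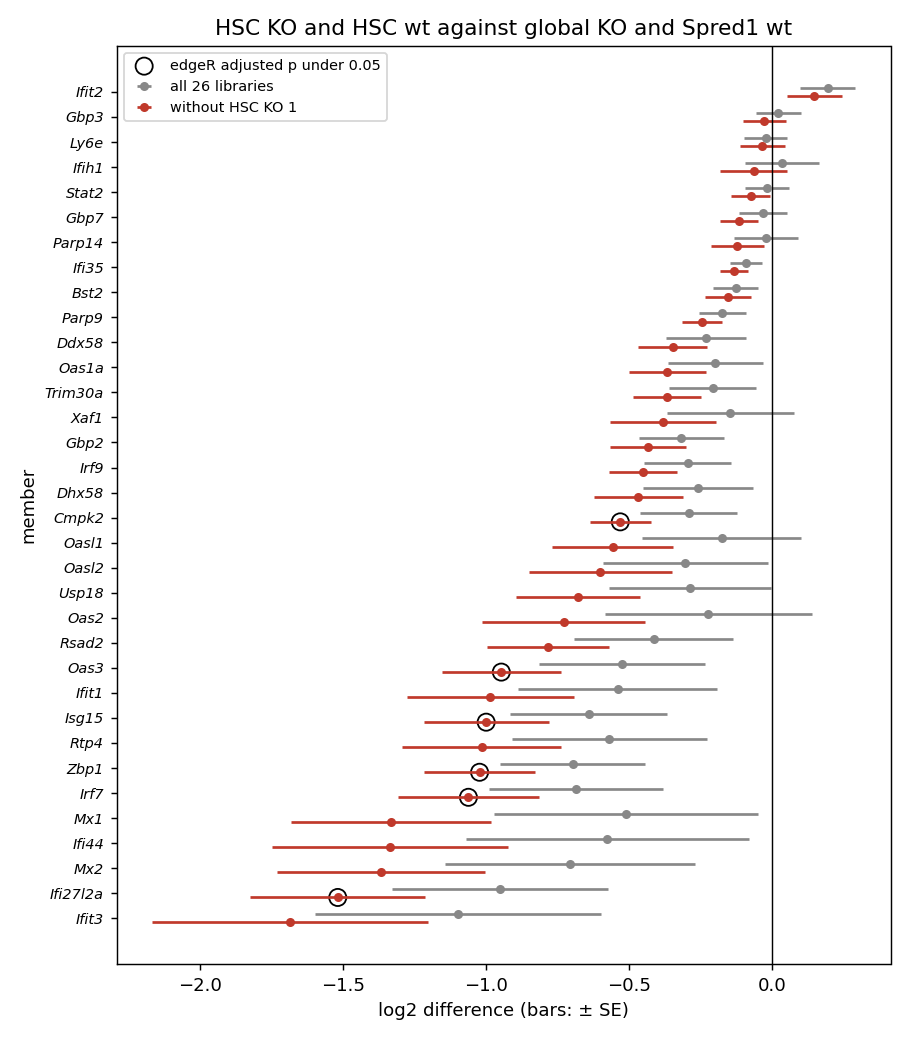
Log2 difference of each member between both poly(I:C) groups and global KO with Spred1 wt, from the fit with all libraries and from the fit without HSC KO 1, with standard errors. The median moves from -0.27 to -0.50, and 6 members pass the adjusted threshold in the fit without HSC KO 1, against 0 with all libraries and 0 once sex is a covariate.

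Loss of Spred1 in all tissues was the next comparison, global KO against Spred1 wt, both without stated poly(I:C) and all male. The members had a median log2 difference of -0.11 against 0.01 for all genes, with 8 higher and 26 lower (45.5% of all genes were lower). None passed by edgeR, DESeq2 or limma voom (0.0747% of all genes passed by edgeR). Zbp1 alone had an unadjusted p under 0.05, as 5.53% of all genes did. It was at 9.14, 10, 7.47, 3.72, 6.94 and 6.76 CPM in global KO, with a log2 difference of -0.81 (SE 0.34, adjusted p = 0.821).

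The groups overlapped, since global KO 1 and 2 lay above the lowest Spred1 wt library at 7.88 CPM. Isg15 had a log2 difference of -0.62 (SE 0.37) and Ifit2 of 0.20 (SE 0.13). The intervals leave room for sizeable changes in the variable members: for Mx1 the 95% interval ran from -1.70 to 0.92. In steady members it was narrow, for Ifi35 from -0.15 to 0.17.

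Whether Spred1 loss acted differently under Mx1-cre and in the global knockout was tested as the difference of the 2 effects. The median over the members was 0.30 against 0.01 for all genes, with 31 positive (52.2% of all genes were). No member passed by edgeR, DESeq2 or limma voom (0.0149% of all genes did by edgeR), and none had an unadjusted p under 0.05 (2.14% of all genes did). Without HSC KO 1 the median was -0.12, with 8 positive and 26 negative, and 0 passed, so the sign again followed that library.

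In EC KO against Spred1 wt a single member fell, Oasl2. Oasl2 codes for a ubiquitin-like relative of the oligoadenylate synthetases. It was at 3.39, 3.58, 6.61, 13.1 and 18 CPM in EC KO 1 to 5 and at 48.6, 48, 28.3, 27.3 and 28.3 CPM in Spred1 wt 1 to 5. The groups did not overlap (3.27% of all genes had all EC KO libraries below all Spred1 wt libraries), and the EC KO values were also below all 21 other libraries, which ran from 18.6 to 69.5 CPM (1.09% of all genes had all EC KO libraries below the other 21). The log2 difference was -2.02 (SE 0.44, adjusted p = 0.00665 by edgeR). In this comparison 7.96% of all genes passed and 4.47% fell, so 1 of 34 members is below the share of all genes.

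The fall of Oasl2 was also found with libraries left out and with sex taken into account. Each of the 10 fits that left out a library kept the call, with log2 differences from -2.48 to -1.81. Male libraries alone gave -1.54 (adjusted p = 0.0183), and sex as a covariate gave -1.95 (adjusted p = 0.0144), both by edgeR.

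Oasl2 was low relative to the rest of the set too. Its log2 CPM minus the mean of the other 33 members was -1.64 to -0.33 in EC KO (median -1.43) and 0.48 to 1.21 in the other 21 libraries. Within EC KO it still rose with the set, from EC KO 1, the lowest in both, to EC KO 5, the highest in both. The plot of Oasl2 against the other members shows the 5 EC KO libraries below the others at a given level of the set.

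**Figure D5:**
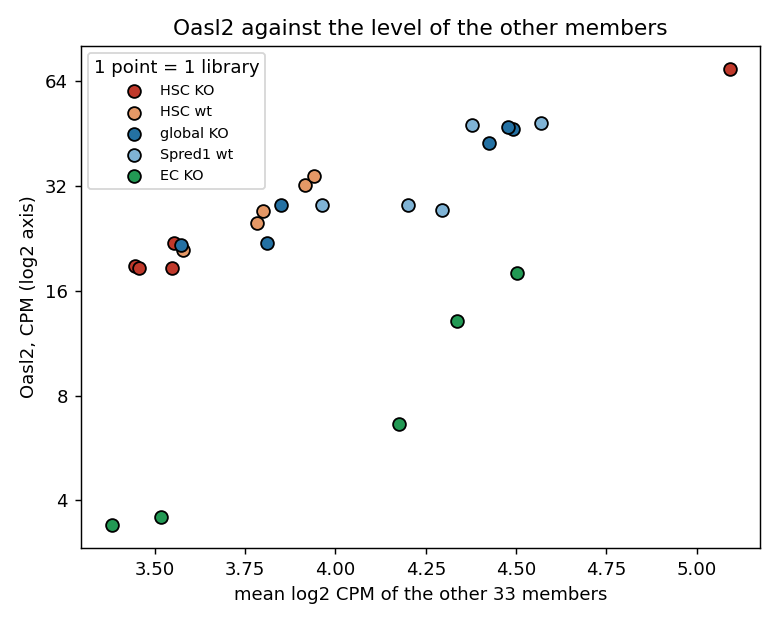
Oasl2 in CPM (log axis) against the mean log2 CPM of the other 33 members, 1 point per library, coloured by group. The 5 EC KO libraries, at 3.39 to 18 CPM, lie below the other 21, at 18.6 to 69.5 CPM.

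Oasl1, the adjacent gene and nearest relative, did not share the fall. It was at 6.06 ± 1.74 CPM in EC KO against 5.44 ± 2.36 in Spred1 wt (SD, n = 5 each; log2 difference 0.15, SE 0.40, adjusted p = 0.841 by edgeR). Oasl2 lies at chr5:114896934-114912245 and Oasl1 begins 11 kb beyond its end. How reads shared by the 2 genes were counted is not given in the sources used here.

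Other genes around Oasl2 were called as well. Within 1000 kb, 43 other genes were tested, of which 6 rose and 3 fell in EC KO (20.9%), against 9.92% of the 837 tested genes of chromosome 5. Rplp0, a ribosomal stalk protein gene, was at 1070 ± 80.8 CPM in EC KO against 1870 ± 198 (log2 difference -0.81, adjusted p = 7.38e-06 by edgeR). Cit, the gene of citron kinase, had a log2 difference of -0.49 (adjusted p = 0.000338) and Pxn, the gene of paxillin, of 0.37 (adjusted p = 0.000252). In Rplp0 and Cit, as in Oasl2, all EC KO libraries were below the other 21, as in 1.09% of all genes, and in Pxn all were above them, as in 0.441% of all genes. Whether Oasl2 and these neighbours share a cause was not tested.

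The remaining members did not pass in EC KO. The median log2 difference was -0.21 against 0.02 for all genes, with 5 higher and 29 lower (46.5% of all genes were lower). With Oasl2, Zbp1 (log2 difference -0.83, adjusted p = 0.149) and Isg15 (-0.84, adjusted p = 0.179) made up the 3 members with an unadjusted p under 0.05, which 25.1% of all genes had. Zbp1 passed narrowly by edgeR when HSC KO 1 was left out of the shared fit (adjusted p = 0.0497) and with limma voom (adjusted p = 0.035). The first of these p-values is not independent of the choice of HSC KO 1, which was made after its member values were seen.

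The female EC KO libraries weighed on this comparison. With male libraries alone the median over the members was -0.02, with 16 higher and 18 lower. Irf7 was at 6.19 and 7.29 CPM in the female libraries EC KO 1 and 2 and at 19.1, 17.3 and 21.7 CPM in the male ones, against 13.1 to 18.3 CPM in Spred1 wt. Its log2 difference was -0.11 with all libraries and 0.31 with males alone (adjusted p = 0.633 by edgeR). In HSC wt the female libraries 4 and 5, at 3.81 and 3.83, lay inside the range of the male ones. In HSC KO the female libraries 4 and 5, at 3.47 and 3.48, lay below the male libraries 2 and 3, at 3.57 and 3.58, and the female HSC KO 1 lay above all. The part of sex in the EC KO values was not tested beyond these fits. Siglech, the plasmacytoid dendritic cell marker, was at 0.209 and 0.141 CPM in EC KO 1 and 2 and at 1.75, 3.64 and 2.39 CPM in EC KO 3 to 5, and its part was not tested.

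Upstream of the members, EC KO also had a lower level of Tyk2, a kinase of the interferon receptor, which fell by 0.19 on the log2 scale (SE 0.05, adjusted p = 0.0327). It was the only one of the 10 receptor and JAK-STAT genes called in any of the 6 comparisons with all libraries. In EC KO 7.96% of all genes were called, so 1 of 10 is near the share of all genes. Kit, a gate gene, fell by 0.85 in EC KO (SE 0.18, adjusted p = 0.00447), both by edgeR. Of 16 sensing genes, 7 negative regulators and 55 other interferon-stimulated genes, none was called in any of the 6 comparisons with all libraries.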

How the data were processed

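The deposited table holds whole-number read counts per gene for 26 RNA-seq libraries, not normalized, with a gene length in kb and coordinates. Tools named in the submitters' processing notes are STAR 2.6.0 and HTSeq 0.6.0, beside edgeR 3.28.1 and bcl2fastq 2.18.0.12, and the build named is mm10. The annotation and the strand setting are not given in the sources used here, so counts of close copies and neighbours (the Oas, Ifit, Gbp, Mx and Trim30 families, Ifi27l2a) are uncertain. Groups were taken from the genotype labels.

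CPM used TMM-scaled totals (edgeR 4.0.16, R 4.3.3). The filterByExpr function (minimum count 10) kept 13379 of 24091 genes. A single fit of group means held all 26 libraries (21 residual degrees of freedom), and the 6 comparisons were contrasts of the robust quasi-likelihood F-test, two-sided, with Benjamini-Hochberg adjustment over all genes and a threshold of 0.05. Named genes were the members of smallest p, of largest spread and of highest or lowest level, and the 15 genes most like the set, of which 1 is not reported here. Names outside this rule (the genes around Oasl2, and members quoted for contrast) were chosen after their values were seen. Alternatives were DESeq2 1.42.0, limma 3.58.1 (voom with quality weights), RLE and upper-quartile factors, 2 other filters, the compared groups only, sex as a covariate, and each library left out. Male libraries only, HSC KO 1 left out of the shared fit, and HSC KO 1 left out with a sex covariate were added after seeing the data. Members and lists were chosen with earlier results of these data known. Libraries with 500 CPM of Xist or more were taken as female. Promoter windows were matched by symbol to RefSeq (GRCm38.p6), whose start sites coincided with the table's for the genes printed. The fit was tested on simulated counts. A count of 0 allows up to 3 counts, for counting error only.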

Additional observations from a re-analysis of the deposited data

Results flagged for a closer look

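The lowest or highest library was compared with the rest of its group in each member and each of the 5 groups by the gap to its neighbour as a share of the group's range. Chance alone marks about 1 in 20 groups by this measure, and 32 of 170 were marked. Of the 32, 28 were HSC KO 1 as the highest library, and so was the mean log2 CPM of the 34 members there, at 5.12. The members are not independent of each other, so 1 library that stands apart is counted many times.

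In CPM, the marked values of HSC KO 1 in sensors were Ddx58 86.8, Ifih1 56.9, Dhx58 32.9 and Zbp1 15.7. Among transcription factors and the ISG15 system they were Irf7 27.2, Irf9 73.5, Isg15 8.51 and Usp18 14.4. Among antiviral effectors they were Ifit1 11.8, Ifit3 2.1, Oas1a 33.3, Oas2 44.9, Oas3 49.2, Oasl1 14, Oasl2 69.5, Mx1 14.5, Mx2 7.4, Rsad2 26.9 and Cmpk2 34.3. In the remaining roles they were Ifi27l2a 5.13, Ifi44 34.1, Ifi35 31.6, Rtp4 22.8, Xaf1 27.4, Gbp7 151, Parp9 79, Parp14 122 and Trim30a 129. Each lay far above the other 4 HSC KO libraries.

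HSC wt 2 was the highest of its group in Ifit3 at 0.959 CPM and in Isg15 at 4.08 CPM. Spred1 wt 3 was the lowest of its group in Stat2 at 45.7 CPM, and Spred1 wt 5 the lowest in Ifi35 at 23.9 CPM.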

How the results depend on the processing

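RLE or upper-quartile factors and other filters (none, or 1 CPM in at least 5 libraries) moved no direction of a member median, no count of members called and no count of all genes called by over 1.5 times. RLE factors and a prior count of 0.5 moved group levels by less than 1 SD, and a restriction to members that pass the filter changes nothing, as all 34 do. No paired analysis was possible because the labels give the groups no shared replicate numbers. The causes of the changes below were not tested beyond what each setting leaves out.

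In HSC KO against HSC wt, male libraries alone (2 HSC KO, without HSC KO 1, and 3 HSC wt) turned the median of the members to -0.283. They turned the log2 differences of Oasl2 to -0.544, Zbp1 to -0.594, Isg15 to -0.28, Irf7 to -0.395, Oas3 to -0.436 and Cmpk2 to -0.236. Limma voom turned the same values to a median of -0.177, Oasl2 -0.279, Zbp1 -0.327, Isg15 -0.198, Irf7 -0.056, Oas3 -0.275 and Cmpk2 -0.285. In the difference of the HSC KO and global KO effects, male libraries gave a median of -0.155, Oasl2 -0.481, Irf7 -0.162 and Oas3 -0.293. In EC KO against Spred1 wt they gave Irf7 0.314.

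Members called numbered 5 with limma voom in the contrast of both poly(I:C) groups, and 2 in EC KO with limma voom or with HSC KO 1 out of the shared fit. Over libraries left out, the contrast of both poly(I:C) groups called 0 to 6 members, the 6 without HSC KO 1. With that library left out and sex as a covariate, 0 were called.

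Counts of all genes called moved more. In HSC wt against Spred1 wt they were 4, but 1 with the compared groups only or males only, 7 with HSC KO 1 out of the shared fit, 18 with limma voom, 35 with DESeq2, and 1 (without HSC wt 1) to 21 (without Spred1 wt 1) with a library left out. In global KO they were 10, but 4 with the compared groups only, 45 with DESeq2, and 8 to 25 (without Spred1 wt 1) with a library left out. In EC KO they were 1065, but 333 with the compared groups only, 636 with a sex covariate, 1824 with limma voom, and 483 (without EC KO 3) to 1880 (without EC KO 5). In the contrast of both poly(I:C) groups they were 59, but 14 with a sex covariate, 15 with a sex covariate and HSC KO 1 left out, 7 with males only, 524 with limma voom, 201 with DESeq2, and 13 (without HSC wt 4) to 125 (without HSC KO 1). In HSC KO they were 3, but 0 with males only and 5 with DESeq2. In the difference of effects they were 2, but 1 with males only, 5 with limma voom, 7 with DESeq2, and 2 to 7 (without Spred1 wt 1).

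With a library left out, the median of the members ran from -0.338 (without HSC KO 1) to 0.26 in HSC KO, and from -0.117 (without HSC KO 1) to 0.423 in the difference of effects. It ran from -0.5 (without HSC KO 1) to -0.197 in the contrast of both poly(I:C) groups, from -0.463 to -0.294 in HSC wt against Spred1 wt, from -0.175 to -0.015 in global KO and from -0.38 to -0.103 in EC KO. In HSC KO, single members ran from -0.514 to 0.206 (Oasl2), -0.446 to 0.359 (Zbp1), -0.346 to 0.588 (Isg15), -0.295 to 0.6 (Irf7), -0.065 to 1.302 (Ifi27l2a), -0.479 to 0.516 (Oas3) and -0.361 to 0.261 (Cmpk2), each lowest without HSC KO 1. In the difference of effects they ran from -0.458 to 0.268 (Oasl2), -0.067 to 0.966 (Irf7), -0.342 to 0.668 (Oas3) and -0.077 to 0.552 (Cmpk2), each lowest without HSC KO 1. Oasl2 in global KO ran from -0.166 to 0.065, and Irf7 in EC KO from -0.329 to 0.087. None of these reversed differences of single members passed the adjusted threshold in either direction. The mean member level of HSC KO ran from 3.523 (without HSC KO 1) to 3.937.

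Precision is limited by 5 or 6 libraries a group, and for Ifit3, Mx2 and Ifi27l2a by low counts.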
